A study of Ovis aries with 10 samples.

Results

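The miRNAs oar-miR-148a and oar-miR-152 are the 2 members of the miR-148/152 family on a custom ovine array of 152 miRNA probes and 55 control probes, and they were taken by probe name. It was run on 10 lung samples from 5 female sheep, numbered 2, 3, 6, 7 and 10 and 9 months old by their labels, each of which gave 1 fibrotic and 1 normal caudal segment. Per the methods, these merino sheep received bleomycin in one caudal segment and saline in the other through a bronchoscope, were killed at week 4, and were chosen among a larger group for the most severe fibrosis. The normal segment of each animal is therefore an internal control that had also been instilled, and no uninstilled lung was analysed here. The labels give the left segment as fibrotic in sheep 2 and 3 and the right segment in sheep 6, 7 and 10, whereas the methods describe bleomycin in the left segment throughout, and the labels were followed.

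A miRNA is a short RNA that guides an Argonaute protein to messenger RNAs, mostly through pairing of its seed, the bases near its 5′ end. The miR-148/152 family consists of miR-148a, miR-148b and miR-152, which carry the same seed, differ further along the molecule, and are therefore predicted to share most of their targets. DNMT1, the enzyme that copies DNA methylation after replication, is among the best known of these targets. MiR-148a is abundant in liver, and miR-148b is not among the probe names of the array. In the RefSeq gene table of the sheep assembly ARS-UI_Ramb_v3.0 both hairpin genes were found by name and lie on different chromosomes. MIR152 lies within the span of COPZ2, which encodes a subunit of the coatomer coat of transport vesicles, between NFE2L1 and CDK5RAP3. MIR148A lies within no other gene of that table. The table gives gene spans only, so the exon or intron is not stated, and the array's genome build is not given in the sources used here.

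Both probes were far from the dim end of the array. Each deposited value is 1 background-corrected intensity on a linear scale, and it was converted to log2 after a floor of 1, below which neither member fell on any array. The mean log2 signal over the 10 arrays was 10.22 for miR-148a and 9.18 for miR-152, and 59 of the 152 miRNAs reached a mean of 5. The summed intensity of the miRNA probes was similar between arrays, from 138979 to 146225, while the median control probe ranged from 72.0 to 289. No pair of arrays held identical values. Precision is limited by there being only 5 animals.

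The signal of miR-148a was higher in the fibrotic segment of every sheep, by a similar step, while that of miR-152 was lower in 3 sheep and nearly level in 2. From the normal to the fibrotic segment, the intensity of miR-148a went from 1443 to 1838 in sheep 2, from 971 to 1160 in sheep 3, from 982 to 1187 in sheep 6, from 1096 to 1470 in sheep 7, and from 874 to 1163 in sheep 10. The normal segment of sheep 2 was brighter than the fibrotic segments of sheep 3, 6 and 10, so the groups overlapped. Without that one array, all normal values lay below all fibrotic values. The normal segments averaged 1073 ± 221 (SD, n = 5), and the fibrotic segments 1364 ± 296 (SD, n = 5).

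Written as log2 fold changes (fibrotic over normal), sheep 2 had 0.35, sheep 3 had 0.26, sheep 6 had 0.27, sheep 7 had 0.42 and sheep 10 had 0.41. The mean change was 0.34, a 1.27-fold difference, with a limma standard error of 0.11 and an adjusted p of 0.411 (limma with the sheep as a block, Benjamini-Hochberg over 152 miRNAs). The exact two-sided sign-flip permutation test over sheep gave p = 0.063, and a design of 5 pairs cannot go lower. A higher signal in the fibrotic segment of each of the 5 sheep was seen for 13 of the 152 miRNAs (8.55%), one of which is miR-148a. By limma, 0 of 152 miRNAs (0%) had an adjusted p under 0.05, and 18 (11.8%) had an unadjusted p under 0.05, miR-148a included and miR-152 not. The unadjusted p of miR-148a was 0.021 by limma, and it was above 0.05 under each of the 6 other scalings between arrays, at 0.054 to 0.23. It was also above 0.05 without the block, at 0.11, without sheep 3, at 0.065, and without sheep 10, at 0.071.

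The change of miR-148a was even from sheep to sheep. The SD of its log2 fold change over the 5 sheep was 0.077, the lowest among the 59 miRNAs whose mean log2 signal reached 5, for which the median SD was 0.34. Ranked from the most positive mean change downwards, with the sign kept, miR-148a was in place 10 of these 59. MiR-21, a miRNA known for its profibrotic role, had a larger mean change of 0.73 with an SD of 0.59, and miR-200b, an epithelial miRNA, changed by 0.58 with an SD of 0.34. The moderated standard error of limma, 0.11, was larger than the 0.034 that the sheep gave for miR-148a alone, because limma draws each spread towards that of all miRNAs. Over the alternatives, the adjusted p ran from 0.0769 with a floor of 32, which removes the spread of dim miRNAs, to 0.931 when the left segment of all sheep was coded as the bleomycin-infused one. Under that last coding, the mean change of miR-148a was -0.10, whereas the mean stayed above 0 under each of the 6 scalings between arrays tried here, from 0.19 with arrays centred on their miRNA median to 0.79 when they were centred on their control probes other than those for 5S rRNA. After quantile normalization miR-148a was higher in the fibrotic segment of only 3 sheep, with a change of 0 in sheep 2 and 7 (exact sign-flip permutation test, p = 0.250). The rank of the spread depended on the scaling between arrays, and was still 1 with the miRNA median, but 5 with the 75th percentile, 7 with miR-103 and 14 with the control probes as the reference, and 9 after quantile normalization. It also rested on single animals, with a rank of 4 without sheep 2 and of 2 without sheep 10.

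**Figure D1:**
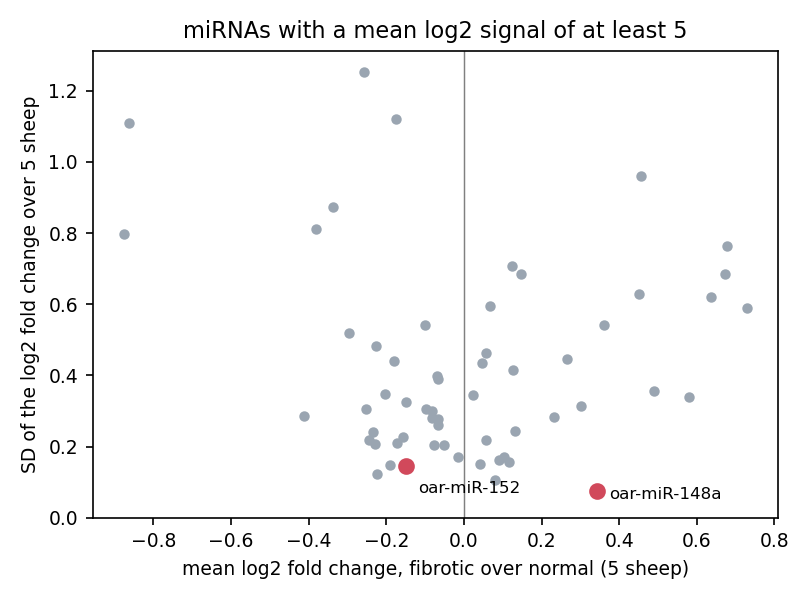
Mean log2 fold change, fibrotic over normal (x axis), against the SD of that change over the 5 sheep (y axis) for the 59 miRNAs whose mean log2 signal reached 5, each point 1 miRNA. MiR-148a, in red at a change of 0.34 and an SD of 0.077, is the lowest point, and miR-152, also in red, has a change of -0.15 and an SD of 0.15.

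From the normal to the fibrotic segment, miR-152 went from 522 to 445 in sheep 2, from 527 to 530 in sheep 3, from 888 to 715 in sheep 6, from 559 to 560 in sheep 7, and from 620 to 534 in sheep 10. Sheep 6 had the highest value in both conditions, and the groups overlapped over most of their range. The normal segments averaged 623 ± 153 (SD, n = 5), and the fibrotic segments 557 ± 98.5 (SD, n = 5). As log2 fold changes, sheep 2 had -0.23, sheep 3 had 0.0060, sheep 6 had -0.31, sheep 7 had 0.0037 and sheep 10 had -0.22, so the 3 sheep with a lower fibrotic value differed from the 2 with no visible step. The mean change of miR-152 was -0.15, with a limma standard error of 0.12 and an adjusted p of 0.540, and the exact two-sided sign-flip permutation test gave p = 0.250. Its direction depended on the scaling, with a mean change of 0.26 when arrays were centred on their control probes, a step that adds 0.41 to the mean change of each miRNA. For comparison, the median change of all 152 miRNAs was -0.021.

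**Figure D2:**
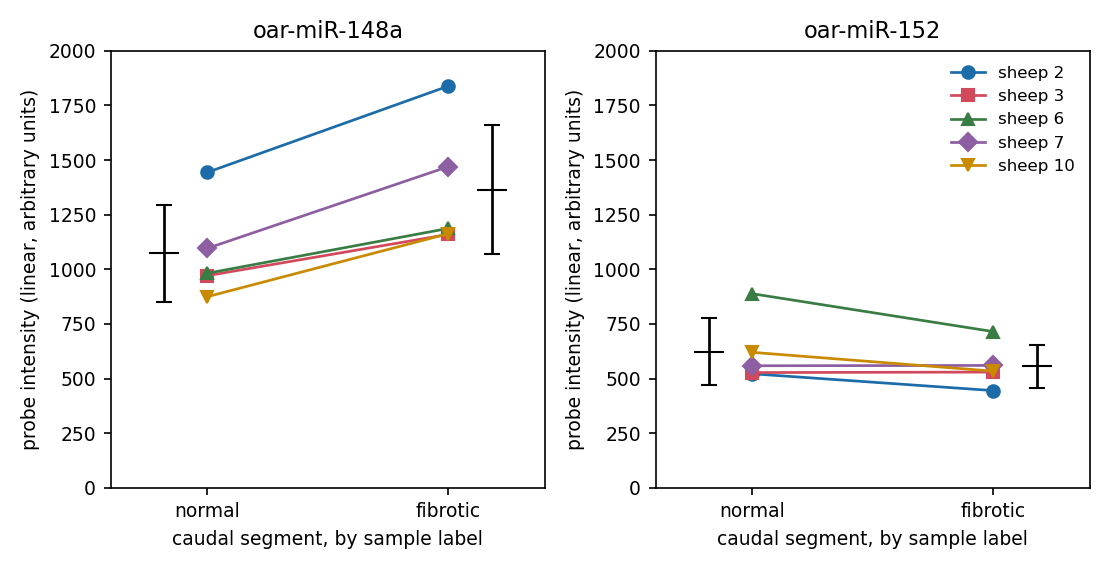
Probe intensity on a linear scale (y axis) of oar-miR-148a (left) and oar-miR-152 (right) in the normal and fibrotic caudal segments, with each line joining both segments of 1 sheep. Black bars show the mean and SD of the 5 sheep. All 5 lines slope upwards for miR-148a, from a mean of 1073 to 1364, whereas for miR-152 lines slope downwards in sheep 2, 6 and 10 and are flat in sheep 3 and 7.

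The side of the segment and the animal were considered next. In the 2 sheep with the fibrotic segment on the left, miR-148a changed by 0.30 on average and miR-152 by -0.11, and in the 3 sheep with the fibrotic segment on the right, by 0.37 and -0.18. Each member therefore had the same direction of mean change in both arrangements. Most of the spread over the 10 arrays lay between animals. Of the total sum of squares of the log2 signal, differences between sheep held 67.5% for miR-148a and 86.0% for miR-152, and the labelled condition held 31.2% and 7.98%. The remainder, which condition and sheep did not account for, was 1.25% for miR-148a and 6.06% for miR-152.

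The balance of both probes differed in the same direction in every sheep. The probes of different miRNAs bind with different efficiency, so the ratio of their signals is not a ratio of molecules, and only its difference between segments was compared. From the normal to the fibrotic segment, the signal of miR-148a over that of miR-152 went from 2.77 to 4.13 in sheep 2, from 1.84 to 2.19 in sheep 3, from 1.10 to 1.66 in sheep 6, from 1.96 to 2.62 in sheep 7, and from 1.41 to 2.18 in sheep 10. The ratio ranged 2.50-fold among normal segments and 2.49-fold among fibrotic segments, wider than any step within a sheep, so the groups overlapped although all 5 pairs moved upwards. On the log2 scale the ratio of the fibrotic segment was higher, with a difference of 0.58 for sheep 2, 0.25 for sheep 3, 0.59 for sheep 6, 0.42 for sheep 7 and 0.63 for sheep 10. The mean difference between the changes of the pair was 0.49, with an SD of 0.16 over sheep (exact two-sided sign-flip permutation test, p = 0.063, again the lowest value possible), which is a 1.41-fold shift of the ratio.

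A step that shifts all probes of an array alike leaves this ratio as it is. Quantile normalization does not, and under it the mean difference was 0.26, with values of 0 for sheep 2 and sheep 7, 0.055 for sheep 3, 0.55 for sheep 6 and 0.68 for sheep 10 (exact sign-flip permutation test, p = 0.250). In sheep 2 and 7 both probes held the same rank among the 152 miRNAs in either segment, and ranks are all that this method keeps. With the left segment coded as bleomycin-infused in all sheep, the mean difference was -0.16. In the simple sum of both intensities, the fibrotic segment was higher in all 5 sheep, by a log2 fold change of 0.18 on average, from 0.024 for sheep 6 to 0.30 for sheep 7. This sum is weighted by the brightness of each probe.

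**Figure D3:**
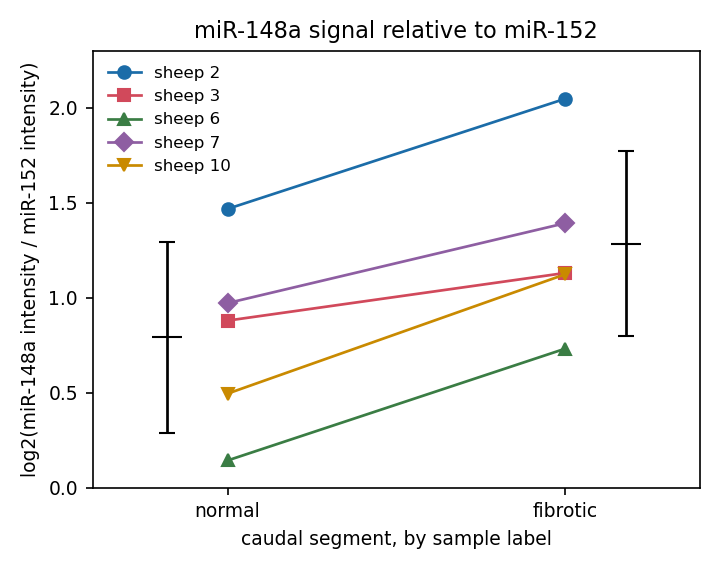
Log2 of the miR-148a intensity over the miR-152 intensity (y axis) in the normal and fibrotic segments, with each line joining both segments of 1 sheep and black bars giving the mean and SD of the 5 sheep. All 5 lines slope upwards, by 0.25 (sheep 3) to 0.63 (sheep 10), while the level differs between animals, with sheep 6 lowest and sheep 2 highest in both conditions.

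Across the 10 arrays the log2 signals of both miRNAs ran in opposite directions, with a Pearson r of -0.56 and a Spearman rho of -0.39. The arrays come in pairs from 5 animals, so this is a description without a test. Sheep 2 had the highest miR-148a signal and the lowest miR-152 signal in each condition, and sheep 6 had the highest miR-152 signal. After the mean of each sheep was removed, r was -0.72 and rho -0.52. Each sheep has 2 arrays, so these 2 values restate the changes between segments given above and add no further evidence. Without the 2 arrays farthest from the miR-148a median, the fibrotic segment of sheep 2 and the normal segment of sheep 10, r was -0.39 and rho was 0, so the inverse order over arrays rests on those samples. Leaving out sheep 2 gave an r of -0.27, and leaving out sheep 6 gave -0.77. The correlation also depended on the scaling. It stayed below 0 but was weaker after quantile normalization, at -0.26, and with the miRNA median as the reference for centring, at -0.024. With the control probes as that reference the sign was reversed, at 0.73. The control median itself differed between the segments by a log2 value of -1.31 (sheep 6) to 0.56 (sheep 10), and its part in this correlation was not tested.

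**Figure D4:**
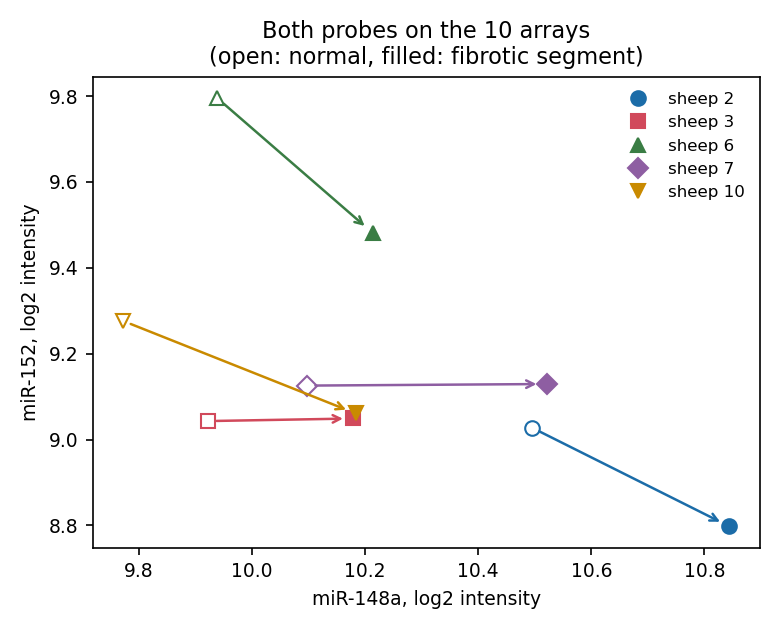
Log2 intensity of miR-148a (x axis) against that of miR-152 (y axis) on the 10 arrays, with an arrow from the normal (open) to the fibrotic (filled) segment of each sheep. Every arrow points to the right, and it slopes down in sheep 2, 6 and 10 and is almost level in sheep 3 and 7, which are the changes of 0.0060 and 0.0037 in miR-152.

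Other miRNAs that share a seed by family name gave a frame for these values. From the array, 11 such families were taken, among them let-7, miR-30, miR-29 and miR-200b/c. They form 38 pairs in which the mean log2 signal of both members reached 5. The set did not hold every group of like-named probes, and miR-376c-3p and miR-376e-3p, for example, were not in it. The difference between the mean changes of miR-148a and miR-152 was the largest of the 38, at 0.49 against a median of 0.092 for the other 37 pairs. The next was that of miR-29a and miR-29b, at 0.32, where miR-29a changed by -0.19 and miR-29b by 0.13. A difference of 1 sign in all 5 sheep occurred in 4 of the 38 pairs (10.5%), namely miR-148a with miR-152, miR-29a with miR-29b, miR-200b with miR-200c, and let-7a with let-7f. The pair also had the lowest correlation, as the r of the other 37 pairs ran from -0.49 for miR-26a with miR-26b to 0.98 for let-7a with let-7d, with a median of 0.81. Members of 1 family enter several pairs, so the 38 pairs are not independent. By the size of the difference, the pair kept the first place with any 1 sheep left out. By that measure it was in place 10 after quantile normalization and in place 14 with the left segment coded as bleomycin-infused in all sheep. The place of its correlation was not ranked again under these alternatives, and its r was -0.27 without sheep 2.

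**Figure D5:**
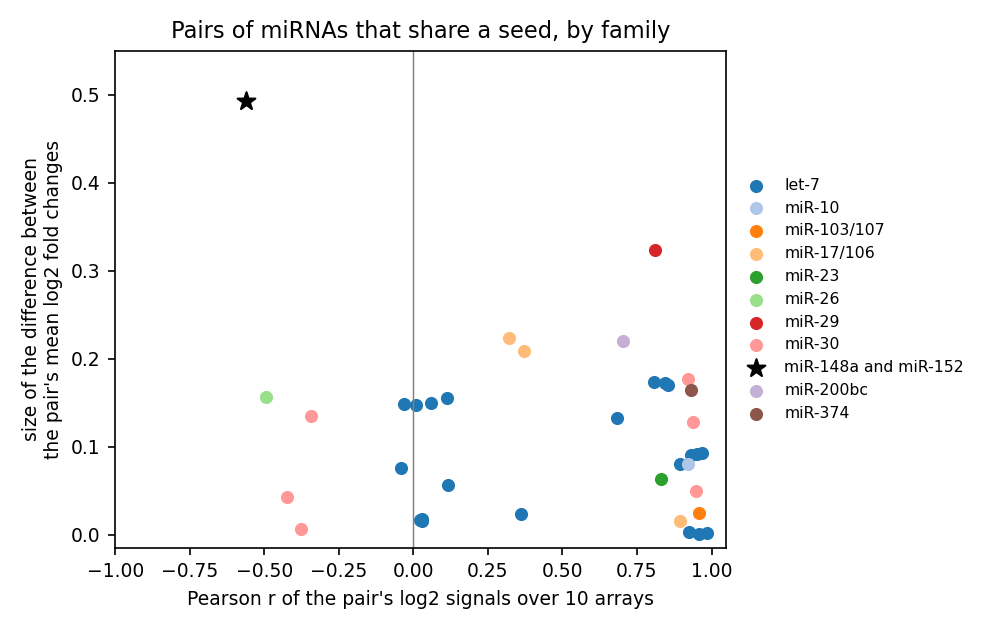
Pearson r of the log2 signals of 2 miRNAs of a family over the 10 arrays (x axis) against the size of the difference between their mean log2 fold changes (y axis), for 38 pairs in 11 families, coloured by family. The pair of miR-148a and miR-152, the star, stands at an r of -0.56 and a difference of 0.49, above the pair of miR-29a and miR-29b at 0.32.

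The members resembled different miRNAs. Among the 58 other miRNAs whose mean log2 signal reached 5, the profile of miR-148a over the 10 arrays was most like that of miR-376e-3p (r = 0.78), miR-376c-3p (r = 0.75) and miR-411a-5p (r = 0.66), and least like that of let-7i (r = -0.78). With the mean of each sheep removed, these values were 0.69, 0.76, 0.33 and -0.39, and the order was another one, led by miR-200b (0.89), miR-199a-3p (0.86) and miR-21 (0.82), with miR-26a least alike (-0.90). MiR-376e-3p and miR-376c-3p were each higher in the fibrotic segment of 4 sheep, with mean changes of 0.23 and 0.30. The profile of miR-152 was most like that of miR-362 (r = 0.89), miR-22-3p (r = 0.76) and miR-127 (r = 0.75), and least like that of miR-26b (r = -0.81). With the mean of each sheep removed, these values were 0.44, 0.24, -0.043 and -0.16, and the list was led by miR-181a (0.78), miR-29a (0.78) and miR-26a (0.71), with miR-148a itself least alike (-0.72). MiR-362 was lower in the fibrotic segment of 4 sheep, with a mean change of -0.23, which was 0.18 with control probes as the reference. These correlations share animals and arrays and are given without a test. Those with sheep means removed follow the changes between the segments of each sheep, and are not a separate measure of likeness.

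Of 6 miRNAs generally known to target DNA methyltransferases, 4 are on the array, namely both members and miR-29a and miR-29b, which target DNMT3A and DNMT3B. By limma 0 of the 4 passed an adjusted p under 0.05, and 1, miR-148a, had an unadjusted p under 0.05, against 11.8% of all miRNAs, a call that was lost under all 6 other scalings. MiR-148a and miR-29b had mean changes above 0 and miR-152 and miR-29a below 0, so the list had a median change of -0.0087, close to the median of all miRNAs. MiR-29a was also above 0 after quantile normalization, at 0.021, and miR-29b was below 0 with the miRNA median as the reference, at -0.023, while all 4 were above 0 with the control probes as the reference. Of the 3 miRNAs listed as profibrotic, miR-21 and miR-199a-3p are on the array, both with mean changes above 0 and a median of 0.61. The silencing experiment that the paper cites for miR-199 concerned miR-199a-5p, the other arm of that hairpin. Of the 8 antifibrotic miRNAs listed, 4 were above and 4 below 0, with a median change of 0.033, and all 8 were above 0 with the control probes as the reference. None of the miRNAs in either list passed the adjusted threshold. The unadjusted one was passed by both miRNAs listed as profibrotic and by 1 of the 8, against 18 of all 152 (11.8%).

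Whole lung tissue holds many cell types, and fewer cells of a type cannot be told apart from less of a miRNA per cell. The epithelial markers miR-200a, miR-200b and miR-200c, 3 of 5 listed, all had mean changes above 0, and their summed intensity was 2400 to 4319 in normal and 3496 to 6712 in fibrotic segments. The mesenchymal markers miR-143, with a mean change of 0.056, and miR-199a-3p, 2 of 4 listed, summed to 5564 to 20054 in normal and 8483 to 16264 in fibrotic segments. The leukocyte markers miR-150, with a mean change of -0.30, and miR-181a, 2 of 5 listed, summed to 2395 to 3954 in normal and 1656 to 3641 in fibrotic segments. Both leukocyte markers were above 0 with the control probes as the reference, and miR-143 was below 0 after quantile normalization and with the miRNA median as the reference. Only 1 of 3 skeletal muscle markers, miR-133, is on the array, at 35.2 to 162 in normal and 23.5 to 49.3 in fibrotic segments. Within sheep, miR-133 was lower in the fibrotic segment of 3 and higher in 2. Its mean change was -0.86, with an SD of 1.11 over sheep (exact sign-flip permutation test, p = 0.25). Of the endothelial and red cell names, 0 of 2 and 0 of 2 match a probe. The part of such cell types in the changes of miR-148a and miR-152 was not tested.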

How the data were processed

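The authors labelled RNA of each lung segment with 1 dye on a custom ovine miRNA array, and deposited for every probe on every array a background-corrected intensity, described as the average of 21 spots. The methods describe log2 transformed data, but the deposited intensity values are linear, and no scaling between arrays is stated, so several scalings were tried. After a floor of 1, log2 was taken. All 152 miRNAs were fitted in limma 3.58.1 (R 4.3.3) with terms for condition and sheep, since both segments come from 1 animal, with Benjamini-Hochberg adjustment. Deviations of both segments from their condition means correlated at 0.34, 0.90, 0.40, -0.67 and 0.56 in sheep 2, 3, 6, 7 and 10. The code was tested on simulated data. Single values were tested by exact sign-flip permutation over the 5 sheep. Members and lists were chosen with earlier results of these data known. Named miRNAs are the members, for each the 3 most and the 1 least correlated, and list members, while the miRNAs most and least alike after removal of sheep means and other shared-seed pairs were named after their values were seen. Shared seeds were taken from family names, as no mature sequences were used here. Alternatives covered scaling, floor, filter, block, variance trend, test, coding and side of segments, and leaving out each sheep.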

Additional observations from a re-analysis of the deposited data

How the results depend on the processing

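The change of miR-148a was above 0 under 17 of 18 alternatives and that of miR-152 below 0 under 15 of 18. None passed an adjusted p under 0.05 in either case. Part of these counts was fixed in advance. The alternatives of floor, filter, block, variance trend and test left the mean changes at 0.34 and -0.15. Leaving out 1 sheep could not turn the mean of miR-148a negative, as its change was above 0 in all 5 sheep. With the left segment coded as bleomycin-infused in every sheep, the changes were -0.10 for miR-148a, 0.060 for miR-152 and -0.16 for their difference, and the pair was in place 14 of 38. Centring arrays on their control probes gave 0.26 for miR-152 and a correlation of 0.73. With the 5S rRNA probes left out of that reference, an alternative chosen after seeing the data, miR-152 was at 0.29. Centring on the miRNA median lowers each mean change by 0.16 and gave a correlation of -0.024. Quantile normalization gave a correlation of -0.26, and place 10 for the size of the pair's difference. Leaving out 1 sheep in turn, the correlation ran from -0.77 to -0.27. Without the replicate block, limma gave the same change of 0.34 for miR-148a with an adjusted p of 0.716, and the difference of the pair had an exact permutation p of 0.159. The count of 18 miRNAs at an unadjusted p under 0.05 was 7 with a floor of 32, 9 without dim miRNAs, 8 without the block, 9 by a paired Student's test over the 5 sheep, 3 with the left coding, and 6 to 26 with 1 sheep left out. That Student's test, whose pairing over sheep is not taken from the methods, gave miR-148a an adjusted value of 0.0847. The other causes were not tested, and the ranks of shared-seed pairs and of spreads under alternatives were added after seeing the data.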
